A study of Mus musculus with 4 samples.

Results

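Immediate early genes were examined in the intestinal mucosa of A/J and C57BL/6J mice through 10 genes chosen by symbol: Fos, Fosb, Jun, Junb, Egr1, Atf3, Ier2, Ier3, Dusp1 and Zfp36. Every probe set that the platform annotation gives to these genes was taken, which made 11 of the 22690 probe sets on the array, with 2 for Jun and 1 for each other gene. Male mice of both inbred strains, labelled as 10 weeks old, were kept on a low-fat (LF) or high-fat (HF) diet for 2 weeks, so that the 4 groups were A/J on LF, A/J on HF, C57BL/6J on LF and C57BL/6J on HF. Each group had 6 mice, of which 2 with an average body weight were pooled as RNA and hybridised to 1 Affymetrix Mouse Expression Array 430A. The sources used here give neither the segment of the intestine nor the make-up of the diets. With 1 pooled array per group there was no replicate, and the spread between mice was not measured. In such bulk RNA, fewer cells of a type and less RNA per cell cannot be told apart.

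Immediate early genes are transcribed within minutes of a stimulus, without new protein synthesis, when growth factor, cytokine or stress signalling reaches serum response factor, ternary complex factors or CREB at their promoters. Several of the products are transcription factors that then switch on later genes: Fos and Jun family proteins pair through leucine zippers into AP-1, and Egr1 binds GC-rich sites through zinc fingers. Others close the response down, such as Dusp1, a phosphatase that switches off MAP kinases, and Zfp36 (tristetraprolin), which binds AU-rich messages and hastens their decay. The messages themselves are short-lived, so their level depends on recent transcription and on decay, which these arrays do not separate.

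RefSeq promoter windows (build GRCm38.p6) were matched by symbol for 8 of the 10 genes. Egr1 and Ier2 had no window in the set used, so no motif was searched for in them. The 150 bases before the annotated start are printed for 4 of them, which together hold every kind of motif that was found. Junb holds only a kind that Fos holds too. The windows of Jun and Ier3 held none of the motifs searched. Capitals mark 6 motifs searched on both strands: the CArG box of serum response factor, the full cyclic AMP response element TGACGTCA, its shorter core TGACG, which the full element contains, the Egr site GCGNGGGCG, the AP-1 site TGANTCA and TATAAA. Fos lies at chr12:85473740-85473889 on the plus strand, Junb at chr8:84978749-84978898, Dusp1 at chr17:26508473-26508622 and Zfp36 at chr7:28379229-28379378, the last 3 on the minus strand, and all end at the base before the annotated start.
Fos: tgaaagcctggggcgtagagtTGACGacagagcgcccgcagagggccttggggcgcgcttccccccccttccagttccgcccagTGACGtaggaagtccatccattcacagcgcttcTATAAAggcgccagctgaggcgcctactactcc
Junb: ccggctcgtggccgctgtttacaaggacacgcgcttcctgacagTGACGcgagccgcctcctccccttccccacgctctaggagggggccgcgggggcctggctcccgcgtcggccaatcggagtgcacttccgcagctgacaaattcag
Dusp1: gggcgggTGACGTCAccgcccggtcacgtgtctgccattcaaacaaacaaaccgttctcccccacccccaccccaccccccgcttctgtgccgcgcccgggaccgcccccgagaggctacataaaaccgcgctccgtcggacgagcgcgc
Zfp36: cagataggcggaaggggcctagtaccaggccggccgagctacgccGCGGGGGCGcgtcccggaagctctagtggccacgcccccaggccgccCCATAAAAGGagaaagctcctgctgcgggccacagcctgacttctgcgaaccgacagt

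The core TGACG was found in 5 of the 8 windows (Fos, Fosb, Junb, Atf3 and Dusp1). Of 32851 mouse promoter windows of the same length outside chr18, 13.3% held it. The full element was found in 1, that of Dusp1, against 1.36% of all windows. The CArG box was found in 1, that of Zfp36, against 0.916%, and TATAAA in 1, that of Fos, against 7.57%. GCGNGGGCG was found in 2, Fosb and Zfp36, against 3.81%, and TGANTCA in 0, against 4.24%. A match describes these letters in this window and says nothing about binding, and elements farther upstream were outside the window.

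Signals were scaled so that each array had the same trimmed mean, and a scaled signal of 100 was used as the floor of every ratio. A gene is called measured where its scaled signals average 100 or more. By that rule 9 of the 10 genes and 10 of the 11 probe sets were measured, among 8036 measured genes of the 12393 on the array. The exception was Fosb. All 8 enterocyte markers with a probe set (Vil1, Fabp1, Fabp2, Lct, Apoa1, Apoa4, Apob and Anpep) were measured, their summed scaled signal lay between 153068 and 162835 on the 4 arrays, and none was at 0. The C57BL/6J LF array stood apart in 18S ribosomal RNA, with a scaled signal of 11010 in the 5' probe set, against 84.4 to 1675 on the other arrays. The A/J HF array stood apart in 9 measured markers of exocrine pancreas, with a summed scaled signal of 2222 against 78905 to 123602. The C57BL/6J HF array stood apart in 4 measured stomach markers (Gkn1, Gkn2, Tff1 and Tff2), with a summed scaled signal of 9445 against 1155 to 3087.

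Fos, the AP-1 subunit that needs a Jun partner to bind DNA, gave scaled signals of 3460 in A/J on LF, 4040 in A/J on HF, 4894 in C57BL/6J on LF and 3604 in C57BL/6J on HF. The C57BL/6J LF array was the highest and A/J LF the lowest, 1.41-fold apart. On HF the signal was 1.17-fold higher in A/J and 1.36-fold lower in C57BL/6J. Fosb, a Fos relative with the same kind of zipper, gave 69.6, 78.2, 38.7 and 65.8 in the same order of arrays. All 4 values were under the floor, so no ratio is given for Fosb.

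Jun, the AP-1 subunit that can also pair with itself, was read by a pair of probe sets. The brighter gave 959 in A/J on LF, 870 in A/J on HF, 1299 in C57BL/6J on LF and 1020 in C57BL/6J on HF, and the other gave 749, 717, 848 and 764. Both probe sets put the arrays in the same order, highest on C57BL/6J LF and lowest on A/J HF, 1.49-fold apart in the brighter and 1.18-fold in the other, and both A/J arrays lay below both C57BL/6J arrays. The brighter stands for Jun in what follows. Junb, which can restrain Jun at some promoters, gave 1167, 1015, 1074 and 752 in that order. It was lowest on C57BL/6J HF, 1.43-fold below C57BL/6J LF and 1.35-fold below A/J HF, and both HF arrays lay below both LF arrays. Atf3, a stress-induced factor of the ATF/CREB family, gave 409, 403, 648 and 485. The A/J values lay within 1.02-fold of each other and below both C57BL/6J values, and C57BL/6J LF was 1.59-fold above A/J LF.

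Egr1, the zinc finger factor, gave 234 in A/J on LF, 401 in A/J on HF, 410 in C57BL/6J on LF and 397 in C57BL/6J on HF. The A/J LF array was low, and the highest and lowest of the others, both from C57BL/6J, were 1.03-fold apart. The A/J LF value was 1.71-fold below A/J HF and 1.75-fold below C57BL/6J LF, the widest range over the arrays among the 9 genes. Ier2, a small nuclear protein induced by growth factors, gave 1057, 1202, 1010 and 836 in that order. It was highest on A/J HF and lowest on C57BL/6J HF, 1.44-fold apart, and both A/J arrays lay above both C57BL/6J arrays. Ier3, a stress-inducible protein that affects cell survival, gave 205, 268, 256 and 244, lowest on A/J LF as for Egr1 and Fos.

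Dusp1 gave 285 in A/J on LF, 227 in A/J on HF, 264 in C57BL/6J on LF and 248 in C57BL/6J on HF. The highest and lowest were the A/J arrays, 1.26-fold apart, and both LF arrays lay above both HF arrays. Zfp36 gave 2941, 2584, 2942 and 2533 in the same order. The LF arrays were almost equal and lay above both HF arrays, which were 1.02-fold apart. The whole range was 1.16-fold, the narrowest among the 9 genes.

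**Figure D1:**
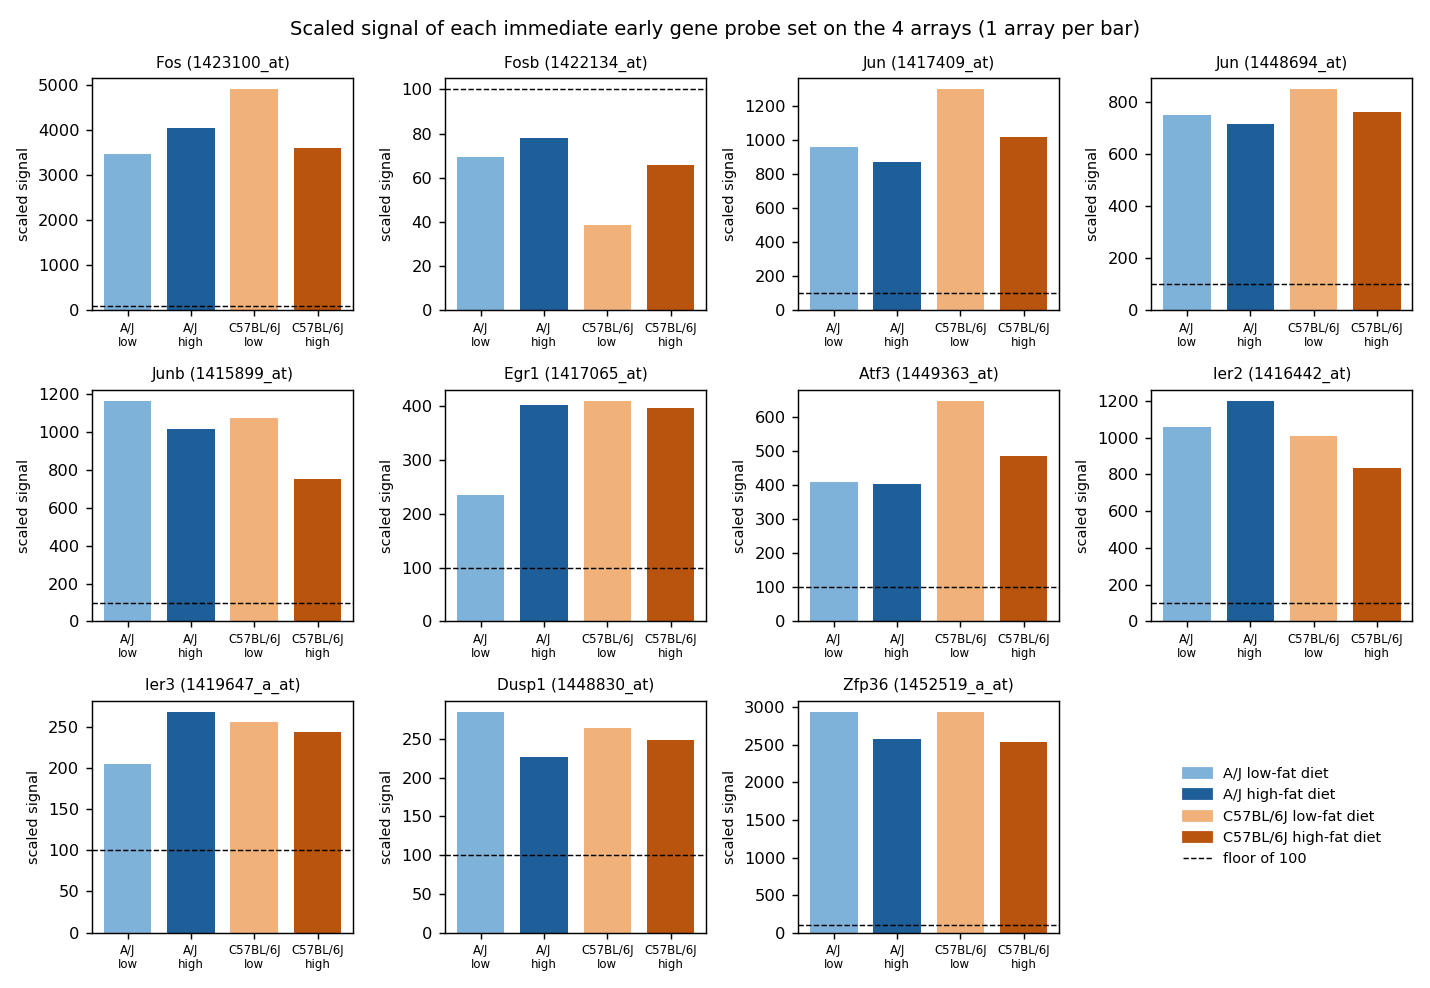
Scaled signal (vertical axis, linear, from 0) of each of the 11 probe sets on the 4 arrays, with 1 bar per array and the floor of 100 as a dashed line; there are no error bars because each group has 1 array. All 4 Fosb bars lie under the floor, Egr1 is low on A/J LF only, and both Jun probe sets are highest on C57BL/6J LF.

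Over the 4 arrays the 9 genes spanned 1.16-fold to 1.75-fold, with a median of 1.44-fold, against a median of 1.42-fold over all measured genes. The C57BL/6J LF array was the highest for 5 of the 9 (Fos, Jun, Egr1, Atf3 and Zfp36) and the lowest for 0, whereas C57BL/6J HF was the highest for 0. The lead was narrow for Zfp36 (2942 against 2941 on A/J LF) and for Egr1 (410 against 401 on A/J HF). Among all measured genes, C57BL/6J LF was the highest for 26.2% and C57BL/6J HF for 19.6%. With quantile normalization C57BL/6J LF was the highest for 4 genes, and with no scaling between arrays for 3. In the median of the 9 genes after subtracting each gene's mean, the log2 deviation was -0.10 for A/J LF, 0.03 for A/J HF, 0.12 for C57BL/6J LF and -0.04 for C57BL/6J HF.

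In A/J, the comparison of HF with LF asked how 2 weeks of dietary fat bore on these genes in the strain known to resist obesity. Egr1 was the only one of the 9 at least 1.5-fold higher, by 1.71-fold, and 0 were at least 1.5-fold lower. Over all 8036 measured genes, 4.99% were higher and 4.70% lower by as much. The other genes ranged from Dusp1, 1.26-fold lower, to Ier3, 1.31-fold higher. In all 4 were higher (Fos, Egr1, Ier2 and Ier3) and 5 lower, with a median log2 ratio of -0.02 beside 0.01 over all measured genes. The Egr1 ratio rests on the A/J LF array, where its deposited signal was 86.1 against 143 on A/J HF, and the gene has no other probe set. The A/J HF array is the one with low pancreas markers, whose part in these ratios was not tested.

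In C57BL/6J, the strain prone to obesity, all 9 genes were lower on HF than on LF, where 50.9% of all measured genes were lower. They were lower under trimmed mean scaling, quantile normalization and no scaling alike. None reached 1.5-fold, 0 of 9 in either direction, against 5.13% of all measured genes higher and 4.63% lower. Junb was 1.43-fold lower, Fos 1.36-fold, Atf3 1.34-fold, Jun 1.27-fold, Ier2 1.21-fold and Zfp36 1.16-fold. Dusp1, Ier3 and Egr1 were 1.06-fold, 1.05-fold and 1.03-fold lower. The median log2 ratio was -0.27, where that of all measured genes was -0.01 and the central 90% of them ran from -0.57 to 0.59. No gene of the 9 lay outside that span. With no scaling between arrays the median was -0.42, and 2 genes were at least 1.5-fold lower, Fos (-0.59) and Junb (-0.66). This comparison uses the C57BL/6J LF array with the high 18S signal, and T cell markers were high on the same array. Of 9 T cell markers 8 were measured (Cd3d, Cd3e, Cd3g, Cd8a, Gzma, Gzmb, Ccl5 and Nkg7), with none at 0 and a summed scaled signal of 12966 on C57BL/6J LF, 7142 on C57BL/6J HF, 3031 on A/J LF and 4236 on A/J HF. Of these 8, 7 were at least 1.5-fold lower on C57BL/6J HF than LF. The C57BL/6J HF array enters as well, with all 4 stomach markers and 7 of 9 pancreas markers at least 1.5-fold higher than on LF. The part of the 18S signal, T cells, stomach or pancreas RNA in the immediate early gene ratios was not tested.

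**Figure D2:**
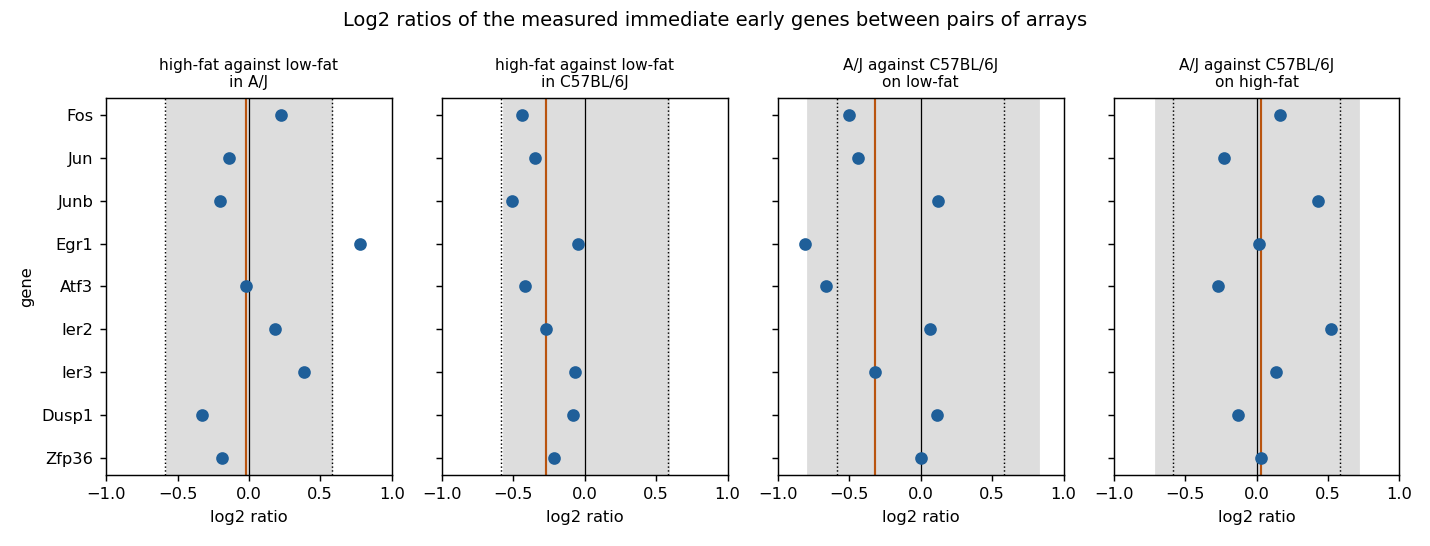
Log2 ratio (horizontal axis) of each of the 9 measured genes in the 4 comparisons of 2 arrays; the grey band holds the central 90% of all 8036 measured genes, dotted lines mark 1.5-fold, and the orange line is the median of the 9. In C57BL/6J every point lies left of 0, and on HF the strain ratios scatter around 0, where with no scaling between arrays all 9 lie above it.

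The strain comparison on LF asked whether these genes differed between the strains without the high-fat diet. Egr1 was 1.75-fold lower in A/J and Atf3 1.59-fold lower, so 2 of 9 were at least 1.5-fold lower, against 9.23% of all measured genes. None of the 9 was as much higher in A/J, against 10.9%. Fos was 1.41-fold lower and Jun 1.35-fold, while Junb, Dusp1 and Ier2 were 1.09-fold, 1.08-fold and 1.05-fold higher, and the log2 ratio of Zfp36 was -0.00048. The median log2 ratio was -0.32, beside 0.02 over all measured genes. With no scaling between arrays the median was -0.14 and only Egr1 was still 1.5-fold lower, with Atf3 at -0.49. Of the 8 T cell markers 6 were at least 1.5-fold lower in A/J here, and their part was not tested. This comparison shares the C57BL/6J LF array with the preceding one, so low values in both are not separate evidence.

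On HF, which leaves the C57BL/6J LF array out, 0 of the 9 genes differed by 1.5-fold in either direction, against 8.37% of all measured genes higher in A/J and 6.88% lower. Ier2 was 1.44-fold higher in A/J and Junb 1.35-fold higher, and Atf3 was 1.21-fold lower and Jun 1.17-fold lower, the last 2 with a sign that turns when the arrays are not scaled. Egr1 was within 1.01-fold. The median log2 ratio was 0.03 beside 0.04 over all measured genes. With no scaling the median of the 9 genes was 0.31, farther from 0 than on LF, and 2 of them (Junb and Ier2) exceeded 1.5-fold, with A/J the higher strain. This comparison holds the A/J HF array with low pancreas markers and the C57BL/6J HF array with high stomach markers. In A/J all 9 pancreas and all 4 stomach markers were lower by 1.5-fold or more, and their part was not tested. With no scaling the median of all measured genes moved to 0.32 on HF and 0.20 on LF, and to -0.15 for diet in C57BL/6J. The split of all genes at least 1.5-fold apart then moved as well, from 673 higher and 553 lower to 1812 and 265 on HF. On LF it moved from 874 and 742 to 1512 and 447. For diet it moved from 412 and 372 to 224 and 695 in C57BL/6J, and from 401 and 378 to 330 and 481 in A/J.

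The diet ratio was higher in A/J than in C57BL/6J for 8 of the 9 genes, with Dusp1 as the exception, and for 4182 of all 8036 measured genes. This count draws on the diet ratios in C57BL/6J, lower on HF for all 9 genes, so it is not separate evidence. The difference of the log2 ratios had a median of 0.40, beside 0.02 over all measured genes. It exceeded 1.5-fold for Egr1 (0.83) and Fos (0.66), 2 of 9 against 8.79% of all measured genes, and was as far the other way for 0 of 9 against 8.89%. With 1 array per group this difference is the residual of the additive fit and has no error of its own, so it was not tested.

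Diet and strain effects over the 4 arrays were tested with limma, in 1 additive fit that leaves 1 residual degree of freedom, with Benjamini-Hochberg adjustment over all 8036 measured genes. By the diet term 0 of the 9 genes rose and 0 fell at an adjusted p under 0.05, against 0.423% of all measured genes rising and 0.187% falling, and 0 of 9 had an unadjusted p under 0.05. The nearest was Junb, at a log2 difference of -0.36 (SE 0.200, limma adjusted p = 0.673), lower on HF in both strains. Egr1 had the largest positive estimate, 0.37 (SE 0.228, limma adjusted p = 0.728), though its HF array was the higher in A/J only. Zfp36, lower on HF in both strains, had -0.20 (SE 0.194, limma adjusted p = 0.851). For Fos the 95% interval of the diet term ran from -0.58 to 0.36, and for Junb from -0.79 to 0.08. Over the 9 genes the estimates had a median of -0.20, beside -0.00 for all measured genes.

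By the strain term 0 of the 9 genes differed at an adjusted p under 0.05, against 3.83% of all measured genes higher in A/J and 3.68% lower (308 and 296, or 596 and 141 with no scaling between arrays). Atf3 was the only one with an unadjusted p under 0.05, at -0.47 (SE 0.203, limma unadjusted p = 0.0394, adjusted p = 0.201), lower in A/J on both diets. Jun, also lower in A/J on both diets, had -0.33 (SE 0.197, limma adjusted p = 0.363). Ier2 and Junb, higher in A/J on both diets, had 0.29 (SE 0.205, limma adjusted p = 0.458) and 0.28 (SE 0.200, limma adjusted p = 0.479). Zfp36 was at 0.01, with a 95% interval from -0.41 to 0.44.

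**Figure D3:**
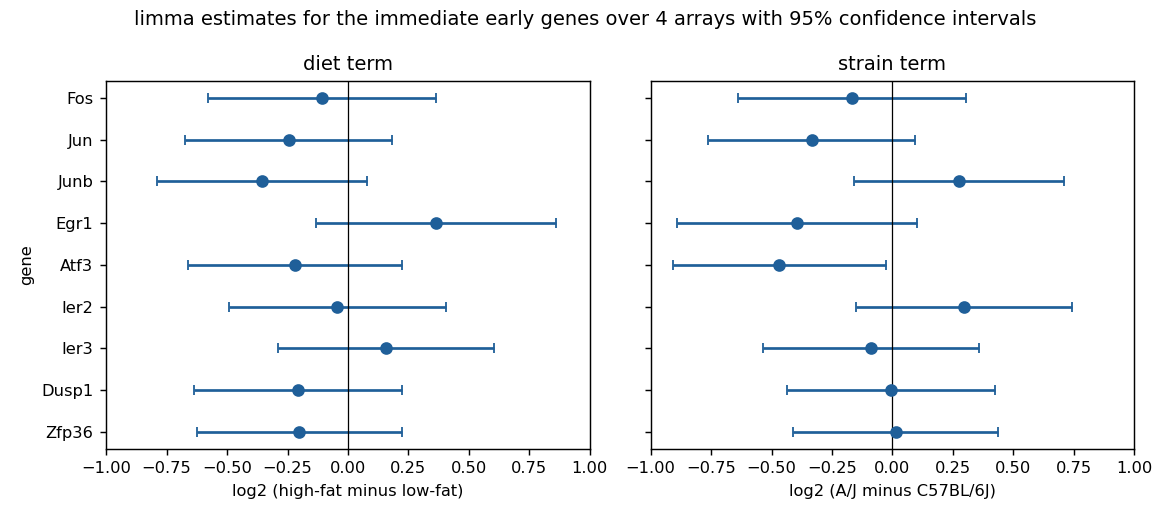
limma estimate (point, log2 scale on the horizontal axis) and 95% confidence interval (bar) of the diet and strain terms for each of the 9 genes over 4 arrays. All 9 diet intervals and 8 of the 9 strain intervals cross 0; that of Atf3 ends at -0.03, and its adjusted p of 0.201 does not pass.

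The calls in the following lists stand beside 3.83% of all measured genes higher and 3.68% lower in A/J, and all of them were lost with a floor of 200, with no filter on signal or in fits of strain alone that left out any array, where limma called 0 genes of the array for strain. Among 23 further early response transcription factors 19 were measured, and by limma 0 changed with diet, 3 were lower in A/J than in C57BL/6J and 0 were higher. Cebpd, a C/EBP factor of the acute phase, had a strain difference of -1.33 on the log2 scale (limma adjusted p = 0.0012), with 163 and 161 in A/J against 448 and 371 in C57BL/6J on LF and HF. The bZIP repressor Nfil3 and the clock-linked repressor Bhlhe40 were the other two, the first of them under the floor in A/J on LF. Egr3, a relative of Egr1, was also lowest on A/J LF, at 20.4 and so under the floor, against 115 to 154 on the other arrays. Atf4, the bZIP factor of the integrated stress response, had 1744, 1950, 2873 and 1643 on A/J LF, A/J HF, C57BL/6J LF and C57BL/6J HF, highest on the same array as Fos, Jun and Atf3. Nr4a1, an orphan nuclear receptor, had 199.8, 131, 160 and 127 in that order, lower on HF in both strains (limma adjusted p = 0.474). For diet in C57BL/6J the median over this list was -0.16 (log2 ratio), and 3 of 19 were at least 1.5-fold higher on HF and 2 lower. Over all measured genes 5.13% were higher and 4.63% lower by as much.

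Of 33 signalling and secreted early response genes 21 were measured. By limma 0 changed with diet, 3 were lower in A/J and 0 higher. Dusp6, a phosphatase specific for ERK, had a strain difference of -1.25 on the log2 scale (limma adjusted p = 0.0022), at 863 and 1156 against 2304 and 2440 in C57BL/6J on LF and HF. Dusp1, its relative among the 10 genes, had a strain estimate of -0.01. Nfkbia, the inhibitor of NF-kappaB, had -0.84 (limma adjusted p = 0.021) and Hbegf, a ligand of the EGF receptor, -0.93 (limma adjusted p = 0.014). Ifrd1 had 1489, 1509, 920.1 and 1976 on A/J LF, A/J HF, C57BL/6J LF and C57BL/6J HF. It was lowest on the array where 5 of the immediate early genes were highest, Egr1 and Zfp36 of them narrowly. The list had a median diet ratio of 0.08 in C57BL/6J on the log2 scale, where the 9 immediate early genes had -0.27. Its sign turned with no scaling, while 13 of 21 stayed above the median of all genes.

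Upstream components were measured for 21 of 31 genes, from receptors and kinases to Srf, Elk4 and Creb1, and by limma 0 changed with diet or strain. Their median log2 ratio was -0.03 for diet in A/J and 0.05 in C57BL/6J, which turned to -0.10 with no scaling between arrays. Mrtfa, a coactivator of serum response factor, had 444, 311, 352 and 202 on A/J LF, A/J HF, C57BL/6J LF and C57BL/6J HF, lower on HF in both strains (limma adjusted p = 0.240). Srf itself had 354, 288, 463 and 460. Of 12 partners and relatives of AP-1, 8 were measured and 0 changed by limma with diet or strain. Bach1, a heme-sensing repressor, had 1442, 939, 2261 and 1451, and Atf5 had 177, 283, 154 and 262, higher on HF in both strains (limma adjusted p = 0.186).

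Heat shock genes are another stress-induced group. Of 11 measured, 6 were lower in A/J than in C57BL/6J by limma and 0 higher: Hspa1a, Hspa1b, Hsph1, Hspb1, Dnajb1 and Hspe1. Hsph1, a chaperone of the HSP110 family, had 645 and 579 in A/J against 2019 and 2202 in C57BL/6J on LF and HF. Hspa1b, an inducible HSP70 gene, had 198 on both A/J arrays against 986 and 1417, though Hspa1a and Hspa1b are near-identical and their probes could share signal, and Hspa1a lay under the floor on both A/J arrays. On HF, which leaves out the C57BL/6J LF array, 8 of the 11 were at least 1.5-fold lower in A/J. That compares with 6.88% of all measured genes. In C57BL/6J all 11 heat shock genes were higher on HF than on LF, where 48.1% of all measured genes were higher. Of the 11, 1 was higher by 1.5-fold, against 5.13% of all measured genes, and the median log2 ratio was 0.46. With no scaling 9 were higher, and 11 of 11 lay above the median of all genes. By the diet term of limma 0 of 11 changed. The difference between the lists was not tested.

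**Figure D4:**
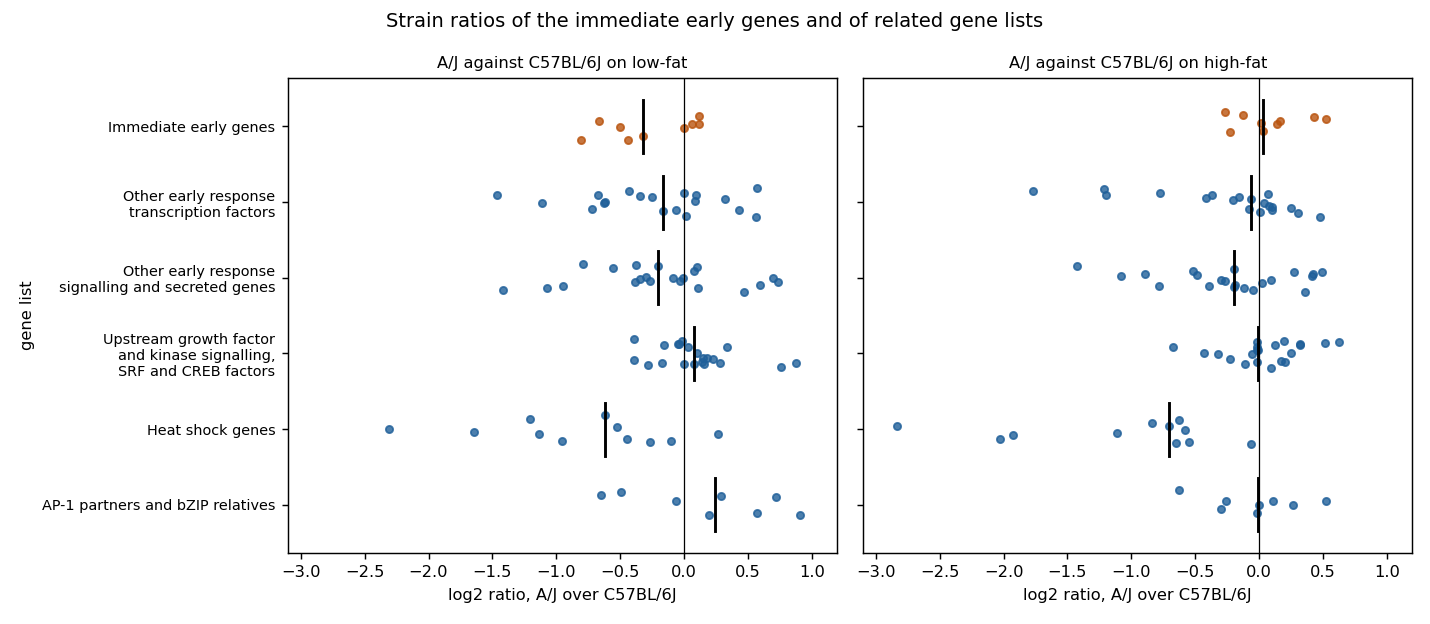
Log2 ratio of A/J over C57BL/6J (horizontal axis) for the 9 measured immediate early genes and the measured genes of the 5 other lists, on LF (left) and HF (right), with 1 point per gene and a black bar at each list's median. The heat shock list lies to the left on both diets, with medians of -0.62 and -0.71, and the immediate early genes have -0.32 on LF and 0.03 on HF, where without scaling they have -0.14 and 0.31.

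Genes with the most similar profile were sought by the root mean square distance, over the 4 arrays, of their centred log2 signals from the median of the 9 genes, among 7325 genes whose range was at least that of this median profile. The 8 nearest were Gsk3b, Cd151, Fbxo3, Psip1, Sft2d2, Tbc1d20, Selenok and Napa, at distances of 0.012 to 0.021. The 9 genes themselves, chosen by symbol, lay from 0.098 for Ier3 to 0.284 for Egr1 from their own median. The 8 were picked for the smallest distances among 7325 genes, so their smaller values follow from that choice. Over 4 arrays a small distance describes these values only.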

How the data were processed

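RNA pools of intestinal mucosa, each from 2 mice, were hybridised to 4 Affymetrix Mouse Expression Arrays 430A. The deposited values are a linear hybridisation intensity per probe set, which the authors computed in Microarray Suite 5.0 from differences between match and mismatch probes, with default settings, per the labels. The sources used here name no scaling target. Precision is limited by the 4 arrays.

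Of 22690 probe sets, 64 controls were set aside. Of the other 22626, the platform annotation gave 1 gene to 20380, several to 691 and none to 1555; 20351 gene numbers matched RefSeq (GRCm38.p6), with 0 changes of symbol. Scaling factors of 2.72, 2.80, 3.08 and 3.41 (A/J LF, A/J HF, C57BL/6J LF, C57BL/6J HF) brought the mean, trimmed by 2% at each end, to 500. Values under 100 were set to 100 before log2. The brightest probe set stood for a gene. Tests used limma 3.58.1 in R 4.3.3, and other steps used Python 3.11.15 with pandas 2.3.3 and numpy 2.4.6. In arrays simulated without a strain-by-diet difference, limma recovered 82 (diet) and 72 (strain) of 100 genes changed 2-fold. It recovered all 100 changed 4-fold for either term, with 11 and 10 false calls. Such arrays follow the fitted model, so they cannot show how a real strain-by-diet difference bears on the calls.

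The members and lists were chosen with earlier results of these data known. All 10 members are named; from each other list, genes called by limma and up to 4 with the largest log2 ratios in a comparison could be named, as could the 8 genes most like the members. Alternatives were quantile normalization, no scaling, floors of 50 and 200, a pseudocount of 50, all probe sets averaged or fitted, no shared probe sets, no filter on signal, an intensity trend, a 2-fold threshold, 1 factor only, and leaving out each array.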

Additional observations from a re-analysis of the deposited data

Results flagged for a closer look

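For 4 of the 9 measured genes the single HF array was above the LF array in A/J and below it in C57BL/6J. Since all 9 were lower on HF in C57BL/6J, these are simply the genes that were higher in A/J. Among all measured genes 50.9% were higher on HF in A/J and 50.9% lower on HF in C57BL/6J. The share with both signs was not counted. The log2 diet ratio in A/J minus that in C57BL/6J was 0.66 for Fos (0.22 and -0.44), 0.83 for Egr1 (0.78 and -0.05), 0.46 for Ier2 (0.19 and -0.27) and 0.46 for Ier3 (0.39 and -0.07). The difference was not tested, since each strain has 1 array per diet. The C57BL/6J ratios of Egr1 and Ier3 were near 0.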

How the results depend on the processing

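No paired analysis was possible because each group has 1 array. No alternative gave a limma call for any immediate early gene, for diet or strain, although the counts over all genes ran from 0 to 83 rising and 0 to 40 falling for diet (34 and 15 as reported), and from 0 to 596 higher and 0 to 412 lower in A/J for strain (308 and 296). Of 176 alternative counts and medians over the members, 170 stayed within 1.5 times the count, or within 0.203 (the prior residual SD of limma, log2) of the median. Most of the 176 were counts of 0 that stayed at 0, so this share says little about stability. The tolerance of 0.203 takes in the LF strain median, which went from -0.32 to -0.14 with no scaling and to -0.16 with no filter on signal. With no scaling between arrays, 2 genes (Fos and Junb) were at least 1.5-fold lower on HF in C57BL/6J in place of 0, 1 (Egr1) was lower in A/J on LF in place of 2, and 2 (Junb and Ier2) were higher in A/J on HF in place of 0, where the median became 0.31. At 2-fold in place of 1.5-fold, 0 genes were higher on HF in A/J and 0 lower in A/J on LF. The sign of limma values turned in 14 of 248 cases, none of them called. With no scaling the strain term became 0.063 for Fos, 0.14 for Ier3 and 0.22 for Dusp1. Fits of 1 factor to the 3 arrays left after omitting any single array gave diet terms from -0.039 to 0.77 for Egr1, -0.00055 to 0.32 for Ier3, -0.36 to 0.14 for Fos, -0.55 to 0.11 for Atf3 and -0.31 to 0.22 for Ier2. Strain terms ran from -0.28 to 0.10 for Ier3, -0.094 to 0.12 for Zfp36, -0.17 to 0.16 for Dusp1 and -0.39 to 0.053 for Fos. The sign of the diet term turned without A/J LF for Egr1 and Ier3, without C57BL/6J LF for Fos and Atf3, and without C57BL/6J HF for Ier2. In these fits the strain difference enters the diet term, and the diet difference enters the strain term. A turned sign therefore need not be a turn within a strain. Atf3, for example, was lower on HF in both strains, at log2 ratios of -0.02 in A/J and -0.42 in C57BL/6J. A fit with 3 arrays and 2 factors leaves no residual degree of freedom and was not run. Fosb lay under the floor on all arrays, so its levels have no order.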
